A study of Homo sapiens with 6 samples.

Results

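Extracellular matrix glycoproteins are the secreted, sugar-bearing proteins other than collagens that make up the matrix around cells. The set comprised 35 named genes, chosen by symbol as non-collagen matrix glycoproteins. The rule itself uses no measured value, but members were chosen with earlier results of these data known. All 35 had 1 row each among the 58381 gene IDs of the deposited table. RNA was measured in MCF10AT1, a human breast epithelial cell line derived from MCF10A cells that carry an activated HRAS gene, grown with horse serum, insulin, EGF, cholera toxin and hydrocortisone. By antibodies to 2 surface proteins, cells were sorted into CD24low cells with high CD44 and CD24high cells that were CD44-positive. In their column names the submitters label these fractions CSC and Bulk, and 3 libraries were made of each. No genotype or drug treatment separates the groups, both come from 1 cell line, and no label ties a library to a separate culture. Each p-value is therefore set against the variation among these libraries alone, and that variation may be technical.

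Matrix glycoproteins fall into 3 working classes here. Fibronectin and proteins such as periostin, tenascin and the thrombospondins contact cells, mainly through integrins. Fibrillins polymerize into microfibrils, which scaffold elastin and hold latent TGF-beta through its binding proteins. Laminins, nidogens and agrin build the basement membrane on which mammary epithelium sits. Fibronectin and periostin are widely used as marks of a mesenchymal state, whereas some laminins anchor basal epithelial cells through hemidesmosomes.

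The libraries held 16691162 to 27293177 recovered reads, with CD24high replicate 3 the shallowest. CD24 RNA ran from 2325 to 5687 normalized counts in CD24high and from 329 to 1370 in CD24low libraries, so it followed the sort. CD44 differed by -0.17 (SE 0.12). The share of reads on ribosomal RNA genes was under 5% in 3 libraries, namely CD24low replicate 3 with CD24high replicates 1 and 2, and over 5% in the rest. Differences within the low-share and the high-share libraries are given beside the genes described most fully, without a test, since each has 1 library on one side. All 11 basal epithelial markers were detected, and their summed level was 130867 to 149792 normalized counts in CD24high and 80394 to 101987 in CD24low libraries; LAMB3, described below, is among them. The 11 luminal markers summed to 105192 to 125672 and 75839 to 120851. The summed level of 11 fibroblast markers was 897 to 1323 in CD24high and 1630 to 4453 in CD24low libraries. Of these, LUM, TCF21 and PI16 were at 0 reads in all 6 libraries, and DCN and FAP gave most of the sum. FAP fell by DESeq2's adjusted p. DCN had 146, 325 and 10.2 against 985, 3704 and 846 normalized counts, without overlap. It differed by 4.16 (SE 1.05, DESeq2 adjusted p = 0.11, limma 0.16). COL1A1 averaged 28.6 and 65.1 with overlapping groups. COL3A1 had 1, 0 and 0 reads against 2, 10 and 5, and COL1A2 and THY1 had at most 1 read in a library. The 8 endothelial markers summed to 92.9 to 400.1 and 111 to 345 normalized counts, almost all of it PECAM1. The 8 leukocyte markers summed to 178 to 216 and 187 to 277 normalized counts, almost all of it CD14, CD68 and CSF1R. CD14 averaged 72.3 and 116 and CD68 51.2 and 78.7, each with overlapping groups. CSF1R was lower in CD24low libraries without overlap, at 65.4 and 37.2 on average. None of these was called by DESeq2 or limma, and the T cell gene CD3E was at 0 throughout. The 8 smooth muscle and pericyte markers summed to 334 to 439.6 and 468 to 1131, with CNN1 at 0 throughout. TAGLN of that list, which encodes an actin-binding protein, had 34.0, 72.1 and 73.1 against 191, 473 and 144 normalized counts and rose by 2.04 (SE 0.43, DESeq2 adjusted p = 0.032, limma 0.12). The other tested markers of that list, ACTA2, RGS5 and MCAM, differed by 0.74 (SE 0.40), 0.34 (SE 0.25) and 0.33 (SE 0.26). DESeq2 and limma called none of them. CSPG4, too low to test, went the other way, with 8, 10 and 5 reads against 4, 6 and 0. MYH11 and DES had at most 3 reads in a library. The part of cells of these types in the results was not tested. In sorted bulk samples, more cells that express a gene and more RNA per cell cannot be told apart.

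Promoter sequences are shown for the 5 genes with the clearest differences that had an entry in RefSeq's table, on build GRCh38.p14. Each run is the 250 bases before RefSeq's start of the gene, read 5′ to 3′ on the gene's strand. Capitals mark the RUNX core TGTGGT or TGCGGT, the AP-1 motif TGANTCA and the cyclic AMP response element TGACGTCA on either strand; none of these motifs shares letters with another in the runs shown. The series title names RUNX factors, which is why the RUNX core was searched. The other motifs were added after the values had been seen.
FN1, chr2:215436069-215436318, minus strand: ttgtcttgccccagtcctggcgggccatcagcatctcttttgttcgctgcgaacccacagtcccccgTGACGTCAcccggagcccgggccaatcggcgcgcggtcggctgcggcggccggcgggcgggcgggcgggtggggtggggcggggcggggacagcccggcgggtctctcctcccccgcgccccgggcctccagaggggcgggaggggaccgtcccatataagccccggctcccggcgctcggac
POSTN, chr13:37598769-37599018, minus strand: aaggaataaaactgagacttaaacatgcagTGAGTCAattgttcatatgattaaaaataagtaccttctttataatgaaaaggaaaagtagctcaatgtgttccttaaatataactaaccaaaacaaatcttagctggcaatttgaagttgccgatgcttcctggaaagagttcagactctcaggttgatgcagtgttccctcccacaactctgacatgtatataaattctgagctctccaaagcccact
SNED1, chr2:240998368-240998617, plus strand: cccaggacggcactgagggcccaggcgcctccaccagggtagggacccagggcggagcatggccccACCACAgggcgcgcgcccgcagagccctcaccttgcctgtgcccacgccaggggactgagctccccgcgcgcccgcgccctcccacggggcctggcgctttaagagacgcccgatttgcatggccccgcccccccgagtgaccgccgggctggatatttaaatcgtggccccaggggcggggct
FBN1, chr15:48644971-48645220, minus strand: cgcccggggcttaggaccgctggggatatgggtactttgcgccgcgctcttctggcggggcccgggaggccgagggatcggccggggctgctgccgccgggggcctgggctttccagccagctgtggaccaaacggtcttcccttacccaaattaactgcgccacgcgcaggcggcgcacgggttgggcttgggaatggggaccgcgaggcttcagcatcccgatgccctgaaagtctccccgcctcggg
FBN2, chr5:128538246-128538495, minus strand: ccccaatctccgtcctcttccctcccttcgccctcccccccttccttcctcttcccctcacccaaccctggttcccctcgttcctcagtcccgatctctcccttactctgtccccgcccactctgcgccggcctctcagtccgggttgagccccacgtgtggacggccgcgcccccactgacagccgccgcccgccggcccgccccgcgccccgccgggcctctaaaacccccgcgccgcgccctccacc

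These windows differ widely in composition. FN1 has 32 CpG pairs and 76.4% G and C, POSTN has 1 CpG pair and 36.4%, and the median over all 35116 windows is 11 CpG pairs and 58.0%. SNED1, FBN1 and FBN2 resemble FN1 in this, with 23, 25 and 25 CpG pairs. SNED1 holds 1 RUNX core, 184 bases upstream, POSTN 1 AP-1 motif, 220 bases upstream, and FN1 1 cyclic AMP response element, 183 bases upstream. FBN1 and FBN2 hold none of the 3. RefSeq windows were matched for 27 of the 35 genes, and 5 of these hold a RUNX core (LAMA4, MFAP2, NID2, SNED1 and SPARC), beside 16.3% of all windows. AP-1 motifs stood in 6 of the 27 (ECM1, EMILIN2, MFAP2, POSTN, SRPX2 and TNFAIP6) and in 6.57% of all windows. Of these carriers, only POSTN is among the 5 genes shown. The response element stood in 1 of the 27 and 1.65% of all windows, and the E-box CACCTG in 3 of the 27 and 17.5% of all windows. The start sites are RefSeq's. Set against the genes as GENCODE 29 draws them, the FBN1 and FBN2 windows lie wholly inside the gene, those of FN1 and POSTN partly inside, and that of SNED1 outside.

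Of the matrix glycoprotein genes, 6 rose in CD24low cells by DESeq2's adjusted p, and none fell. They were FN1, POSTN, SNED1, FBN1, FBN2 and EFEMP1. Of the 35 genes, 24 reached a mean of 10 normalized counts and were tested with the 16047 genes of the whole table. DESeq2 called 6 of these 24 higher, where 1.36% of all genes tested were, and 0 lower, where 1.15% were. Limma on the log2 scale called 0 of the 24 and 0% of all genes tested at an adjusted p of 0.05, and edgeR's quasi-likelihood test called 0 too. At an unadjusted p below 0.05 limma had 9 higher and 3 lower, where all genes gave 6.34% and 7.15%. Every CD24low library lay above every CD24high library for 10 of the 24, where 10.2% of all genes did so, and below for 0, where 9.32% did. The median log2 difference, CD24low minus CD24high, was 0.40 over the 24 genes and -0.01 over all genes tested. Within low-share and high-share libraries the members' median was 0.14 and 0.41. Verbs such as rose refer below to DESeq2's adjusted p at 0.05, and differences are limma's on the scale of log2 (normalized count + 1), with their SE.

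**Figure D1:**
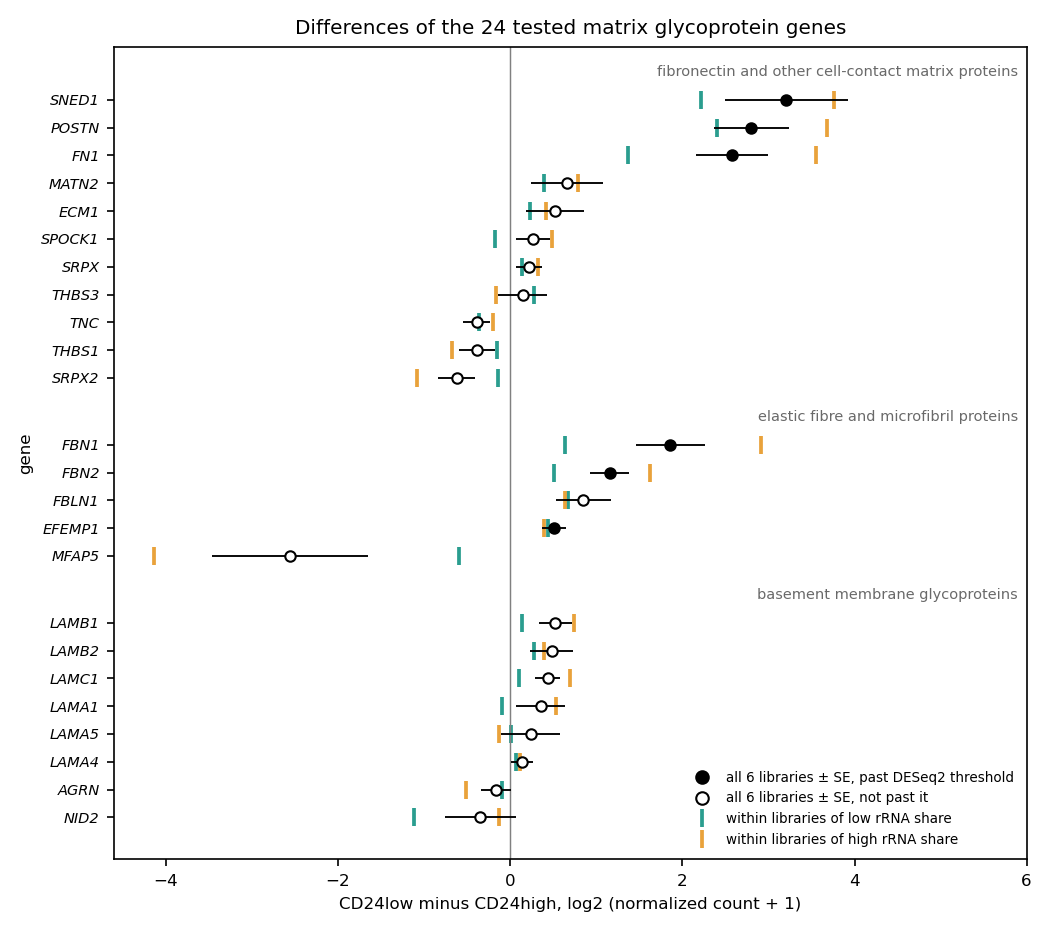
Differences between the fractions for the 24 tested genes, by class. The x axis is CD24low minus CD24high in log2 (normalized count + 1); circles are all 6 libraries with SE bars, filled where DESeq2's adjusted p is below 0.05, and ticks are differences within libraries of low or high rRNA share. FBN1 (0.63 and 2.92) and FN1 (1.37 and 3.55) show wide gaps between the ticks, and EFEMP1 (0.44 and 0.40) almost none.

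FN1 (ENSG00000115414.18, chromosome 2, 215360440 to 215436172, minus strand, hg38) encodes fibronectin, the dimeric glycoprotein that integrins assemble into fibrils. Its normalized counts were 3621, 4167 and 2313 in the CD24high libraries, always given here in the order of replicates 1, 2 and 3, against 18455, 39759 and 10020.4 in the CD24low libraries. The groups did not overlap, and CD24low replicate 2 stood highest. The difference was 2.57 (SE 0.42), a 5.95-fold change, with an adjusted p of 0.0012 by DESeq2 and 0.072 by limma. Per kb of exon, FN1 went from 194 ± 55.0 to 1314 ± 885 normalized counts (SD, n = 3 libraries), from the seventh to the second highest level of the set. The FN1 difference was 2.06 without CD24low replicate 2 and 3.05 without CD24low replicate 3, and DESeq2 called it with any 1 library left out.

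POSTN (ENSG00000133110.14, chromosome 13, 37562583 to 37598844, minus strand) encodes periostin, a matricellular protein that binds integrins and collagen. Its level was low in both fractions. CD24high libraries had 11.6, 6.92 and 2.92 normalized counts, and CD24low libraries 41.4, 58.3 and 51.9. The CD24low libraries lay close together, unlike those of FN1, and well clear of the CD24high libraries. POSTN differed by 2.80 (SE 0.43), a 6.98-fold change, with an adjusted p of 4.8e-05 by DESeq2 and 0.068 by limma. Within low-share and high-share libraries the difference was 2.40 and 3.68. DESeq2 called POSTN whichever library was left out.

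SNED1 (ENSG00000162804.13, chromosome 2, 240998838 to 241095568, plus strand) encodes a large secreted protein with sushi, nidogen and EGF-like domains. CD24high replicates had 7.47, 39.5 and 16.1 normalized counts and CD24low replicates 99.6, 531 and 85.2. The groups did not overlap, but CD24low replicate 2 was far above the other 2 of its group. SNED1 differed by 3.21 (SE 0.71), with an adjusted p of 0.036 by DESeq2 and 0.13 by limma. This was the largest difference of the 24 in limma's fit, at 2.22 and 3.76 within low-share and high-share libraries. DESeq2's call was lost without CD24high replicate 1, without CD24high replicate 3 or without CD24low replicate 1. Up to 3437 bases of exon are shared with MTERF4 on the opposite strand, and, although the library kit marks strand, how the counting used it was not stated. MTERF4 itself had 374 and 388 normalized counts on average in CD24high and CD24low libraries.

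**Figure D2:**
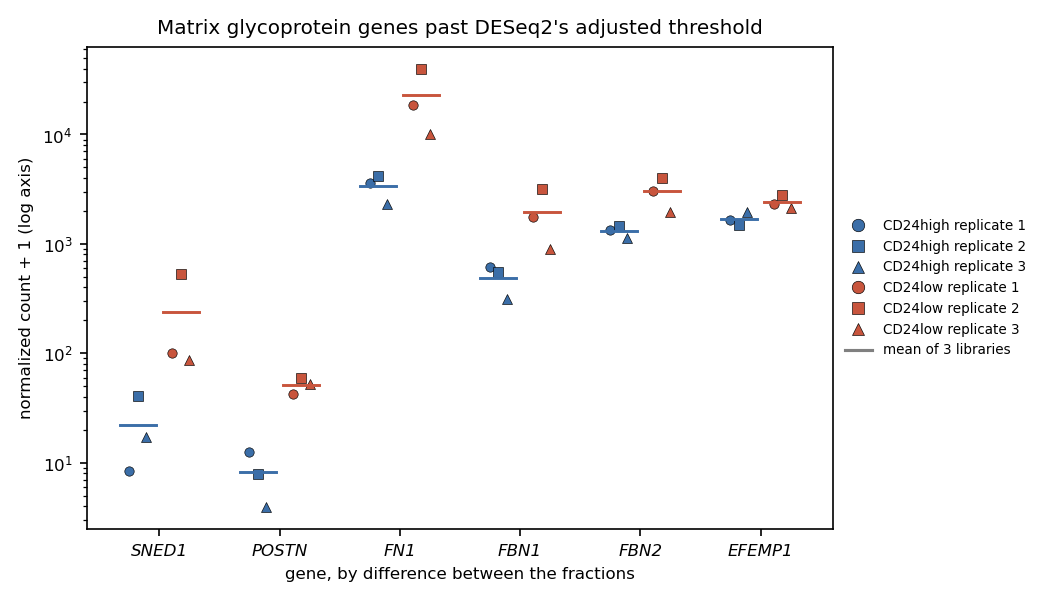
Normalized counts plus 1 (log axis) in each library of the 6 genes that rose by DESeq2's adjusted p. Points are libraries, with the replicate number as the shape, and bars are means of 3. CD24low libraries lie above CD24high libraries in each gene, and CD24low replicate 2 is the highest in each, at 39759 for FN1 and 531 for SNED1.

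Tenascin-C and thrombospondin-1, both abundant, were lower on average in CD24low cells without passing a test. THBS1, which encodes a secreted activator of TGF-beta and inhibitor of blood vessel growth, had the highest level of the set per kb of exon in either fraction, 7927 ± 1128 and 6136 ± 1451 normalized counts per kb. CD24high replicates had 69016, 64544 and 84240.4 normalized counts and CD24low replicates 67279, 41459 and 59854, and the groups overlapped. The THBS1 difference was -0.39 (SE 0.21; limma adjusted p = 0.45, DESeq2 0.35), or -0.16 and -0.67 within low-share and high-share libraries. TNC, whose product loosens the adhesion of cells to fibronectin, had 1441, 1504 and 1112 against 1084, 863 and 1146 normalized counts, and differed by -0.39 (SE 0.15; limma adjusted p = 0.32, DESeq2 0.22). SRPX2, a secreted sushi-repeat protein, had 342, 277 and 416 against 227, 170.0 and 279 and differed by -0.62 (SE 0.21; DESeq2 adjusted p = 0.14), or -0.14 and -1.08 within low-share and high-share libraries. A single pair, CD24high replicate 2 and CD24low replicate 3, kept the SRPX2 groups from separating; with total or TMM scaling they did not overlap, and DESeq2 called SRPX2 lower without CD24low replicate 3. Exons of SRPX2 overlap SYTL4 on the opposite strand. Its related gene SRPX had 195, 189 and 175 against 200.1, 242 and 212 normalized counts, a non-overlapping difference of 0.22 (SE 0.15; DESeq2 adjusted p = 0.71).

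The other cell-contact genes were low or differed little. SPOCK1, the proteoglycan testican-1, had 325 to 388 normalized counts in CD24high and 314 to 550.2 in CD24low libraries (0.26, SE 0.20). THBS3 ran from 29.6 to 42.4 and from 29.1 to 48.7 (0.15, SE 0.29), and its exons overlap MTX1 on the opposite strand. ECM1, a regulator of TGF-beta activation and skin integrity, ran from 20.7 to 30.7 and from 25.5 to 55.4 (0.52, SE 0.34). MATN2, a matrilin of filamentous networks, had 6.64 to 7.90 and 8.81 to 20.1 (0.66, SE 0.41); at a mean of 10.1 it lay just inside the filter. The DESeq2 adjusted p of these 4 genes was 0.62 or more. SPARC, the collagen-binding osteonectin, lay just below the filter at a mean of 6.99 and was not tested. It had 0, 3 and 0 reads in CD24high and 5, 28 and 8 in CD24low libraries. TNFAIP6, which modifies hyaluronan, had 1, 0 and 0 reads and 0, 11 and 2 reads. THBS2 had at most 2 reads in any library, below the floor of 3 reads that a count of 0 allows, so its ratio to THBS1 was not taken.

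Both fibrillin genes rose. FBN1 (ENSG00000166147.13, chromosome 15, 48408306 to 48645849, minus strand) encodes fibrillin-1, the main microfibril protein of adult tissue. It had 612, 550.3 and 313 normalized counts in CD24high libraries, against 1759, 3186 and 900.2 in CD24low libraries. The difference was 1.86 (SE 0.40), a 3.63-fold change, with an adjusted p of 0.024 by DESeq2 and 0.12 by limma. It was 0.63 within low-share and 2.92 within high-share libraries. The groups did not overlap, yet DESeq2 kept the call only without CD24low replicate 3 and lost it without any other single library, where limma's difference ran down to 1.41.

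FBN2 (ENSG00000138829.11, chromosome 5, 128257909 to 128659185, minus strand) encodes fibrillin-2, the fibrillin best known from development. It had 1330.2, 1455 and 1143 normalized counts in CD24high libraries, against 3060.3, 4035 and 1976 in CD24low libraries. FBN2 differed by 1.15 (SE 0.22), a 2.23-fold change, with an adjusted p of 2.7e-05 by DESeq2 and 0.094 by limma. The values within a fraction were tighter than those of FBN1, and DESeq2 called FBN2 whichever library was left out. Within low-share and high-share libraries it differed by 0.51 and 1.62. Per kb of exon FBN2 exceeded FBN1 in either fraction, with 99.2 ± 11.9 against 30.6 ± 9.83 in CD24high and 229 ± 78.1 against 121 ± 71.9 in CD24low libraries. Taken library by library, the log2 ratio of FBN1 to FBN2 counts averaged -1.46 ± 0.38 (SD, n = 3) for CD24high and -0.76 ± 0.40 for CD24low. Those ranges overlapped. By an exact permutation test, two-sided, the 0.71 between them gave p = 0.2 (adjusted 0.60 over 3 ratios); 3 libraries against 3 cannot give less than 0.1.

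EFEMP1 (ENSG00000115380.19, chromosome 2, 55865967 to 55924139, minus strand), encoding fibulin-3, rose by a small amount. CD24high replicates had 1643, 1502 and 1938 normalized counts and CD24low replicates 2323, 2806 and 2133, with no overlap. The difference was 0.51 (SE 0.14), with an adjusted p of 0.047 by DESeq2 and 0.18 by limma, and 0.44 and 0.40 within low-share and high-share libraries. DESeq2 called it in 2 of 6 fits with 1 library left out, those without CD24high replicate 3 and without CD24low replicate 3. FBLN1, encoding fibulin-1, a partner of fibronectin and microfibrils, had 259.7, 527 and 561 against 658, 1165 and 589.7 normalized counts. Its groups did not overlap, but the lowest CD24low library lay close to the highest CD24high library, and the difference of 0.85 (SE 0.32) had a DESeq2 adjusted p of 0.10. Without CD24high replicate 1 it was 0.50, and DESeq2 called FBLN1 only without CD24low replicate 3.

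Elastin and 6 genes of elastic fibre assembly were low or nearly absent. ELN, the elastin gene itself, had 1 read in CD24high replicate 3 and 0 in the other 5 libraries, where a count of 0 allows up to 2.49 to 2.96 normalized counts. EMILIN2 had 1 read in all, MFAP2 at most 2 and FBLN2 at most 2 reads in a library. EMILIN1, a protein between elastin and microfibrils, had 3 to 7 reads, EFEMP2 1 to 5 and FBLN5, which guides elastin onto microfibrils, 1 in each CD24high library and 3, 8 and 3 in CD24low libraries. All 7 fell below the filter, so they were not tested. MFAP5, a small microfibril protein, went the other way from the fibrillins in its mean. CD24high replicates had 37.3, 5.93 and 36.5 normalized counts and CD24low replicates 3.53, 0 and 9.80, with overlapping groups. The MFAP5 difference of -2.56 (SE 0.91) had an adjusted p of 0.094 by DESeq2 and 0.28 by limma; it was -0.59 and -4.14 within low-share and high-share libraries. DESeq2 called MFAP5 lower without CD24low replicate 3.

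**Figure D3:**
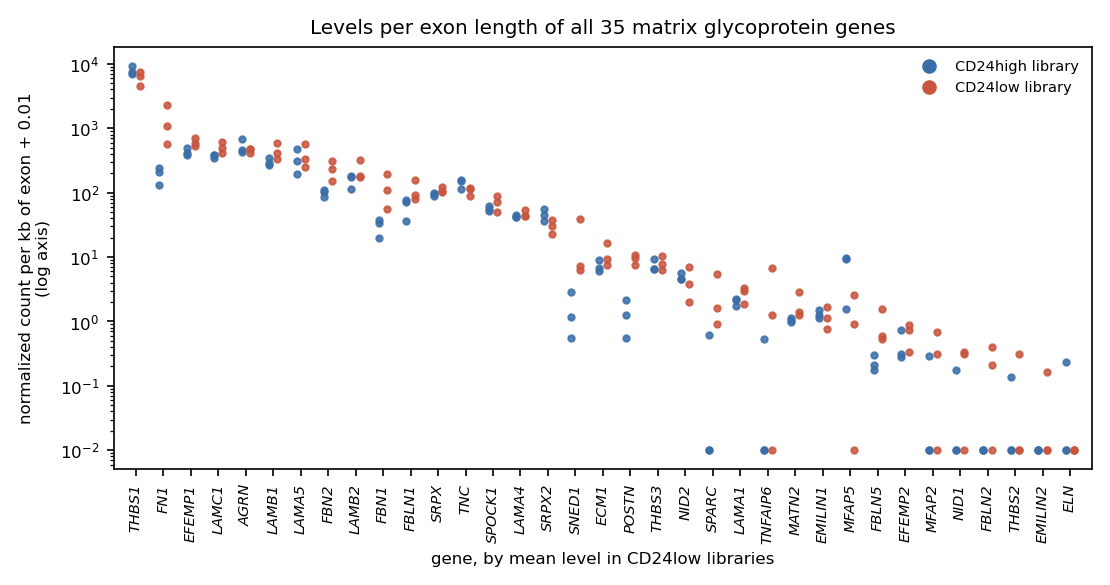
Normalized count per kb of exon plus 0.01 (log axis) of all 35 genes, ordered by the mean of the CD24low libraries; each point is 1 library. THBS1 leads at 6136 in CD24low cells, FN1 stands second at 1314, and 6 genes at the right end never had more than 3 reads in a library.

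No laminin or other basement membrane gene of the set was called by limma or DESeq2 over the 6 libraries. Of 8 tested, 6 had positive and 2 negative differences, with a median of 0.30, and of 0.041 and 0.26 within low-share and high-share libraries. Over all 16047 genes tested, 7862 differences were positive, and 10.2% of genes were higher in CD24low libraries without overlap. LAMC1, the gamma-1 chain shared by most laminins, was the one of the 8 whose groups did not overlap. It had 3239, 3266 and 2877 normalized counts in CD24high libraries, against 4193, 5157 and 3488 in CD24low libraries, a difference of 0.44 (SE 0.15) with a DESeq2 adjusted p of 0.10. LAMB1, the beta-1 chain, had 2214, 2795 and 2392 against 3363, 4785 and 2733 normalized counts (0.52, SE 0.19; DESeq2 adjusted p = 0.11), and one CD24low library fell among the CD24high libraries. LAMC1 differed by 0.10 and 0.69, and LAMB1 by 0.14 and 0.75, within low-share and high-share libraries. DESeq2 called both LAMC1 and LAMB1 without CD24low replicate 3. LAMB2, the beta-2 chain, ran from 791 to 1264 and from 1183 to 2199 (0.48, SE 0.25). The log2 ratio of LAMB1 to LAMB2 counts was 1.21 ± 0.28 and 1.25 ± 0.15, an exact permutation p of 1.0 over the 3 against 3 libraries.

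Laminin alpha chains set the receptor binding of the trimer. LAMA5, the chain of laminin-511, spread widely within each fraction, with 2744, 4452 and 6767 normalized counts in CD24high libraries, against 4796, 8037 and 3523 in CD24low libraries. Its difference of 0.24 (SE 0.34) turned to -0.095 without CD24high replicate 1 and to -0.084 without CD24low replicate 2. LAMA4, a chain common in mesenchymal and vascular basement membranes, was steady at 478 to 522 and 508 to 632 (0.14, SE 0.13). LAMA1, the embryonic chain, was low at 27.7 to 35.7 and 29.4 to 51.6 (0.36, SE 0.28). The log2 ratio of LAMA4 to LAMA5 counts was -3.13 ± 0.61 and -3.23 ± 0.44, with an exact permutation p of 0.9. AGRN, encoding the heparan sulfate proteoglycan agrin, ran from 4549.9 to 7316 and from 4425 to 5214 (-0.16, SE 0.17). NID2, a nidogen that links laminin to collagen IV, ran from 28.6 to 36.5 and from 12.7 to 44.9 (-0.35, SE 0.41), and shares exon bases with RTRAF on the other strand. NID1 had at most 2 reads in a library.

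LAMA3 and LAMB3, laminin chains of epithelial basement membranes that are not in the set, moved in the opposite direction from fibronectin. LAMA3, the alpha-3 chain, had 18378, 13464 and 13086 normalized counts in CD24high libraries, against 9934, 5034 and 8914 in CD24low libraries, and fell by 0.95 (SE 0.24, DESeq2 adjusted p = 0.0045, limma 0.16). LAMB3, the beta-3 chain, fell by 0.57 (SE 0.16, DESeq2 adjusted p = 0.039, limma 0.20) from a mean of 11927 to 8157. For both genes the groups did not overlap. Differences within low-share and high-share libraries were alike, at -0.82 and -0.89 for LAMA3 and -0.56 and -0.59 for LAMB3. With 1 library left out, DESeq2 lost LAMA3 only without CD24high replicate 1. For LAMB3 the call held only without CD24low replicate 1.

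Related matrix glycoproteins were taken as a list of 57 genes, of which 29 were tested. By DESeq2's adjusted p 3 rose and 3 fell, where 1.36% and 1.15% of all genes tested did. The median difference was 0.06, beside -0.01 over all genes tested. LAMA3 and LAMB3 were among those that fell. LTBP1, which tethers latent TGF-beta to fibronectin and fibrillin, had 551, 566 and 340.5 normalized counts in CD24high libraries, against 1697, 2878 and 909 in CD24low libraries, a difference of 1.79 (SE 0.36, DESeq2 adjusted p = 0.011). CCN3, listed as NOV in GENCODE 29, differed by 1.91 (SE 0.48), from 21.4 ± 2.36 to 103 ± 84.1 normalized counts (SD, n = 3 libraries). CCN2, a matricellular connective tissue growth factor listed as CTGF, differed by 0.91 (SE 0.22), from 821 ± 90.2 to 1603 ± 533. Within low-share and high-share libraries the difference was 0.70 and 2.69 for LTBP1, 0.84 and 2.56 for CCN3 and 0.37 and 1.14 for CCN2. DESeq2 lost LTBP1 when any 1 of the CD24high libraries or CD24low replicate 1 was left out, CCN3 without CD24low replicate 2, and CCN2 without CD24high replicate 2, CD24low replicate 1 or CD24low replicate 2.

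Among 29 receptor genes for these ligands, 18 were tested. By DESeq2's adjusted p 1 rose and 2 fell, where 1.36% and 1.15% of all genes tested did. The median was -0.16, beside -0.01 over all genes tested. ITGA5, the alpha subunit of the classical fibronectin receptor, rose with FN1. It had 1609, 1729.8 and 1223 normalized counts in CD24high libraries, against 3181, 4826 and 2190.2 in CD24low libraries, a difference of 1.10 (SE 0.25, DESeq2 adjusted p = 0.00039, limma 0.13). Its partner ITGB1 had 11267 to 16677 and 11520.0 to 13390.5 and differed by -0.08 (SE 0.16). ITGB6, the epithelial subunit that binds latent TGF-beta and fibronectin, fell by 1.21 (SE 0.24, DESeq2 adjusted p = 8.2e-05, limma 0.095). ITGA2, a subunit of a collagen and laminin receptor, fell by 0.71 (SE 0.14, DESeq2 adjusted p = 0.00057, limma 0.094). Within low-share and high-share libraries the difference was 0.39 and 1.68 for ITGA5, -0.88 and -1.17 for ITGB6 and -0.64 and -0.57 for ITGA2. The falls of ITGB6 and ITGA2 were called by DESeq2 whichever library was left out, and the call of ITGA5 was lost only without CD24high replicate 1.

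**Figure D4:**
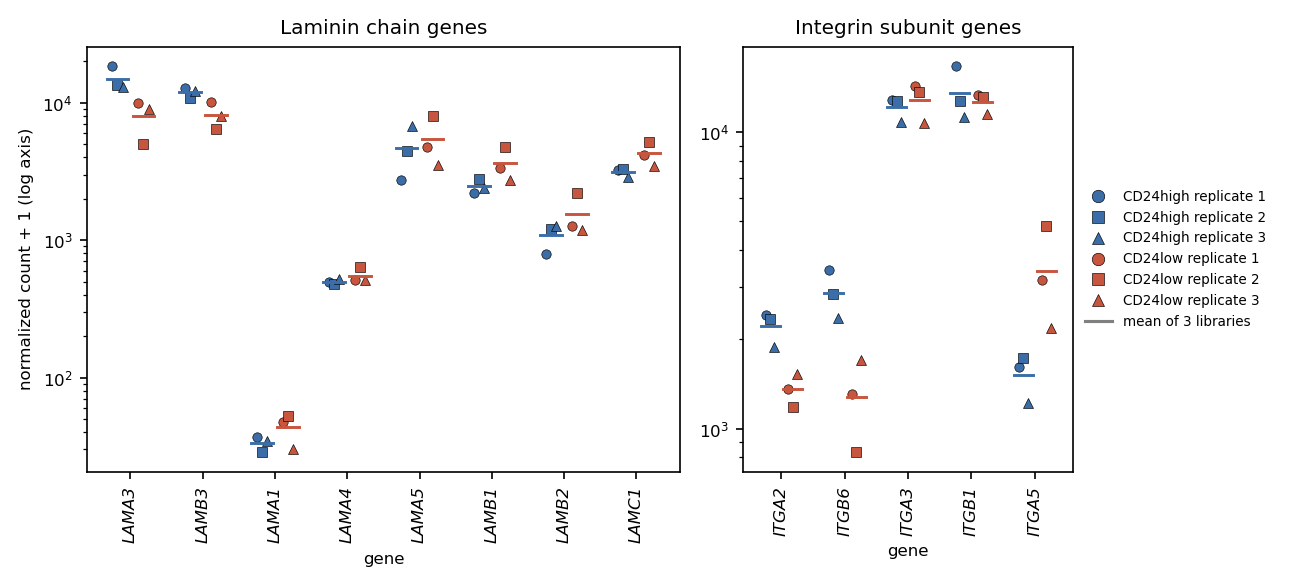
Normalized counts plus 1 (log axis) in each library for 8 laminin chain genes and 5 integrin subunit genes; points are libraries and bars means of 3. CD24low libraries lie below CD24high libraries for LAMA3, LAMB3, ITGA2 and ITGB6, and above for LAMC1 and ITGA5.

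Assembly and turnover enzymes made up the last list, of 31 genes, of which 20 were tested. By DESeq2's adjusted p 2 rose and 0 fell, where 1.36% and 1.15% of all genes tested did. The median was 0.29, beside -0.01 over all genes tested. LOXL2, a lysyl oxidase that cross-links matrix, had 173, 210.4 and 150.5 normalized counts in CD24high libraries, against 623, 829 and 303 in CD24low libraries, a difference of 1.61 (SE 0.32, DESeq2 adjusted p = 6e-06, limma 0.095). LOX, which cross-links collagen and elastin, differed by 1.24 (SE 0.32, DESeq2 adjusted p = 0.0017, limma 0.17). The low-share and high-share libraries gave 0.66 and 2.25 for LOXL2 and 0.61 and 1.56 for LOX. LOXL2 was called by DESeq2 whichever library was left out, and LOX was lost without CD24high replicate 1 or CD24high replicate 3. The 3 lists were written with earlier results of these data known.

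CD24low replicate 2 was the highest library for 19 of the 24 tested matrix glycoprotein genes, and for 23.7% of all genes tested. CD24high replicate 3 was the highest for 3 of the 24, and CD24low replicates 1 and 3 for 0. On the first principal component of all tested genes CD24low replicate 2 also lay at the far end, at 55.0, with CD24low replicates 1 and 3 at 22.9 and 3.83 and the CD24high libraries at -34.2 to -15.9. Without CD24low replicate 2 the members' median fell from 0.40 to 0.20, and DESeq2 called 4 of the 24 higher, FBN2, FN1, POSTN and SNED1, with 77 of the 16047 genes called higher. Without CD24low replicate 3, whose CD24 and first component lay nearest to the CD24high libraries, DESeq2 called 9 of the 24 higher and 2 lower, and 408 and 433 of the 16047 genes, more than the 218 and 184 with all 6 libraries. FBN2, FN1 and POSTN were called by DESeq2 in every fit with 1 library left out.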

How the data were processed

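RNA was measured in 6 libraries, 3 CD24low and 3 CD24high, grouped by their titles. The deposited values are a signal per gene: DESeq2 normalized counts in the authors' own naming of the table. Tools named in the submitters' processing notes are STAR 2.5.2, R 3.5.0 and DESeq2, with build hg38. The sources used here do not give the read counter, its strand setting or the annotation. Each value was a whole multiple of its library's smallest value (100% within 0.1 reads), so reads were recovered; 1 read was worth 0.83 to 1.46 normalized counts. Symbols and coordinates are from GENCODE 29, matched without version for 58261 of 58381 IDs. Members, gene lists and tests were chosen with earlier results of these data known.

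The main test was limma 3.58.1, trend option on, applied to log2 (normalized count + 1), group only, two-sided, Benjamini-Hochberg over the 16047 genes whose mean reached 10 normalized counts. At low levels the added 1 makes changes look smaller. In R 4.3.3, DESeq2 1.42.0 and edgeR 4.0.16 (quasi-likelihood) tested the recovered reads for these genes; promoters, counts and figures used Python 3.11.15. The tests were checked on simulated data, where DESeq2 made more false calls than limma or edgeR. There it recovered more of the 2-fold changes than they did, and slightly fewer of the 4-fold changes. All 35 genes are accounted for, with CD24 as the check of the sort. From each related list up to 3 genes per direction with the smallest DESeq2 p were named. A gene that this rule names is not reported here. ITGB1, the marker genes and the overlapping genes were named after their values were seen. Exon lengths are unions of GENCODE exons. Of the 35 genes, 10 share exon bases with a gene whose mean reached 10 normalized counts. Besides those named above they are THBS1 (with FSIP1), FBN2 (SLC27A6), EFEMP2 (MUS81), LAMA5 (ADRM1) and LAMB1 (DLD), on opposite strands. AGRN shares exon bases with AL645608.5 on its own strand. LAMA5 shares up to 1 exon base with MIR4758, also on its own strand. A floor of 3 reads, the limit for a count of 0, covers counting error alone, as PCR duplicates cannot be recognised. The planned ratio of THBS1 to THBS2 was not computed, and proteins were not used here. Alternatives were 2 pseudocounts, 2 filters, 2 scalings, 2 count tests, the replicate block, a term for rRNA share (split at 5%) and leaving out each library. Replicates of a group differed by more than sampling noise.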

Additional observations from a re-analysis of the deposited data

How the results depend on the processing

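The members called higher numbered 0 in limma but 6 with DESeq2, 7 with the replicate block and 5 with no filter. Over all genes tested, 0, 218, 347 and 99 were called higher, and 0, 402, 716 and 139 in either direction. Tested were 24 members and 16047 genes, but 34 and 27015 with no filter. The replicate block called FBLN1 and LAMB1 (limma adjusted p = 0.047) higher besides FBN1, FBN2, FN1, POSTN and SNED1, and called 2 members, MFAP5 and SRPX2, lower. Leaving out 1 library gave limma 0 to 5 members and 0 to 181 genes called higher (0 to 366 genes in either direction). The upper ends came without CD24low replicate 3. DESeq2 with 1 library left out was a set of fits added after seeing the data. Without CD24high replicates 1, 2 and 3 it called 3, 4 and 4 members higher. Without CD24low replicates 1, 2 and 3 it called 3, 4 and 9 members higher. Genes called higher numbered 97, 151, 131, 137, 77 and 408 in that order, and 224, 242, 224, 194, 137 and 841 in either direction. Members called lower were 2, MFAP5 and SRPX2, without CD24low replicate 3 and 0 otherwise. The number of members lower without overlap was 0, became 1 with total and with TMM scaling, and ran from 0 to 3 with 1 library left out. Over all genes the share lower without overlap was counted only for the main values, at 9.32%. Groups of fewer libraries separate more readily, and no share over all genes stands beside the counts under these other settings. The members' median stayed between 0.20 and 0.59 over the limma fits with 1 library left out and was 0.28 with the term for rRNA share. No label says whether libraries of the same number belong together, so no pairing was assumed. Correlations of deviations from the group means were 0.27, 0.30 and 0.051 for equal numbers 1, 2 and 3. For unequal numbers they ran from -0.26 to 0.075. Deviations from a group mean cancel within the group, so positive values for equal numbers force some negative ones for unequal numbers. Only CD24low replicate 3 correlated better with a library of another number, CD24high replicate 1, than with that of its own. Of 521 member differences under alternatives, 510 kept their direction and 11 did not, in 4 genes: LAMA5 with the rRNA term (-0.056), from -0.095 to 0.56 with 1 library left out, and -0.044 (without CD24high replicate 1) and -0.17 (without CD24low replicate 2) with DESeq2; THBS3 from -0.043 to 0.32, and -0.049 with DESeq2 without CD24low replicate 2; NID2 from -0.78 to 0.092, and 0.16 with DESeq2 without CD24low replicate 3; AGRN from -0.29 to 0.049, and 0.056 with DESeq2 without CD24high replicate 3. With 1 library left out the ratio difference ran from -0.38 to 0.23 for LAMA4 to LAMA5 and from -0.10 to 0.18 for LAMB1 to LAMB2. The causes were not tested. The shallowest library limits the precision of genes with few reads, such as POSTN, MATN2 and SPARC.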
